A study of Mus musculus with 4 samples.

Results

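The 35 genes described here are markers of the cell cycle in pancreatic islet cells of the mouse: 10 genes of S phase, 22 genes of G2 and mitosis (G2/M), and 3 genes (Stmn1, Hmgb2, Tubb5) that dividing cells make in quantity but that many resting cells make too. They were taken as a named list from the 32285 genes of the count tables, and all 35 were found there by symbol. The S members were Rrm2, Tyms, Pclaf, Pcna, Mcm3, Mcm5, Mcm6, Hells, Dut and Lig1. The G2/M members were Mki67, Top2a, Cdk1, Birc5, Ube2c, Cenpf, Cenpe, Cenpa, Ccnb1, Ccnb2, Ccna2, Tpx2, Nusap1, Cdca8, Pbk, Prc1, Hmmr, Aurkb, Aspm, Spc24, Spc25 and Cks2. The S and G2/M members together are called the 32 core members below, and the other 3 the broad members.

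The study measured single-cell RNA (10x Genomics, in which each captured RNA molecule is counted once as a UMI) in islets of female mice on the C57b6/J background, at 1 month and at 6 months of age. The CCR2-DTR transgene gives the receptor for diphtheria toxin to cells that express CCR2, a chemokine receptor of monocytes, so that the toxin removes them; mice with it are CCR2-DTR+/-, and their littermates without it (CCR2-DTR-/-) are called WT. Mice of both genotypes, the controls included, were given diphtheria toxin as newborns, 4 times at intervals of 48 hours from postnatal day 2, and were weaned at day 21 onto regular chow, so no group went without toxin. Each of the 4 libraries held 300 hand-picked islets pooled from 2 to 3 females, with 1 library per genotype and age. There is therefore no replicate check on any difference below: no p-value is given, all intervals cover counting error only, and a difference between groups cannot be told apart from a difference between pools or preparations.

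The libraries held 60315217 to 121292320 UMIs over 5089 to 12444 barcodes, and 25220 cells passed the filters (3633 to 8736 per library, with medians of 8859 to 14703.5 UMIs). Barcodes with more than 15% mitochondrial UMIs, which were left out, made up 9.37% and 12.2% of the WT libraries at 1 and 6 months and 18.4% and 23.9% of the CCR2-DTR libraries. Any 2 libraries shared 6 to 34 barcodes, at most 0.422% of the smaller one. Cells were clustered without cell cycle genes, and 21431 fell into 6 classes named from marker genes: beta-like (8 or 9 of 10 markers above their level in the median cluster), alpha-like (8 of 9), delta-like (6 of 7), endothelial-like (8 of 9), mesenchymal-like (7 and 10 of 11) and macrophage-like (10 of 10). Some clusters carried hormones of another type: delta-like cluster c13 held a median of 13.8% Gcg UMIs and delta-like cluster c15 36.0% insulin UMIs in WT at 1 month, as did the small endothelial-like cluster c21 (31.4%). Beta-like cluster c7 did not stand out in this way, since its Gcg and Sst shares in that library were close to those of beta-like cluster c3. Its insulin share was the lowest of the beta-like clusters there (40.3%). It was left out together with c13 and c15, and these are called the 3 mixed clusters below. Values without the 3 mixed clusters, and without c21, are given where they differ.

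Cells copy their DNA in S phase and separate the copies in mitosis. The genes for the 2 steps are switched on in sequence, the S genes largely through E2F factors. The G2/M genes are controlled largely through the DREAM and B-Myb-FoxM1 complexes, which act at CHR elements. Many G2/M promoters also hold CCAAT boxes. In mouse islets, beta cells divide readily in the first weeks of life and rarely in the adult, and resident macrophages renew themselves in place. The S members serve nucleotide supply (Rrm2, Tyms, Dut), the replicative helicase (Mcm3, Mcm5, Mcm6), the sliding clamp and its partner (Pcna, Pclaf), strand joining (Lig1) and chromatin (Hells). The G2/M members serve entry into mitosis (Cdk1, Ccna2, Ccnb1, Ccnb2, Cks2), the kinetochore and centromere (Cenpa, Cenpe, Cenpf, Spc24, Spc25), the chromosomal passenger complex (Aurkb, Birc5, Cdca8), the spindle (Tpx2, Nusap1, Prc1, Hmmr, Aspm), chromosome structure (Top2a, Mki67), destruction of cyclins (Ube2c) and a mitotic kinase (Pbk).

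The promoters differed between the S and G2/M members in the letters they hold. RefSeq promoters (GRCm38.p6, 250 bases before to 50 after the start) were matched for 29 of the 35 members; Ccna2, Tpx2, Pbk, Aurkb, Spc24 and Stmn1 had no entry. An E2F motif (TTTCCCGC, TTTCGCGC, TTTGCCGC or TTTGGCGC, on either strand) lay in 6 of 10 S promoters and in 1 of 17 G2/M promoters (Cdk1), against 2.61% of the promoters of 27025 genes. A CHR motif (TTTGAA or TTTAAA, on either strand) lay in 15 of 17 G2/M promoters (88.2%) and 3 of 10 S promoters (30%), against 30.6% of all. The pentamer CCAAT, on either strand, lay in 15 of 17 G2/M promoters and 6 of 10 S promoters (60.0%), against 41.1% of all. The S promoters below are shown because Mcm6 and Pclaf hold an E2F motif and Pcna, an S member with a high level in resting cells, holds none of these letters except CCAAT. Capitals mark every E2F, CHR and CCAAT match on either strand, and the last 50 bases lie after the start.

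Mcm6, chr1:128359656-128359955 (minus strand): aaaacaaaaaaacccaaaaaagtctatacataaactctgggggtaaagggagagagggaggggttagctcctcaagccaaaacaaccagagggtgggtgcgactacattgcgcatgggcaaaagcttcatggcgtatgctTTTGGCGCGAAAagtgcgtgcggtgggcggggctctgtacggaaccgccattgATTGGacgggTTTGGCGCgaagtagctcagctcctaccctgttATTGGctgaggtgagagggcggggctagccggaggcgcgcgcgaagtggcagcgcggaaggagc
Pclaf, chr9:65890073-65890372 (plus strand): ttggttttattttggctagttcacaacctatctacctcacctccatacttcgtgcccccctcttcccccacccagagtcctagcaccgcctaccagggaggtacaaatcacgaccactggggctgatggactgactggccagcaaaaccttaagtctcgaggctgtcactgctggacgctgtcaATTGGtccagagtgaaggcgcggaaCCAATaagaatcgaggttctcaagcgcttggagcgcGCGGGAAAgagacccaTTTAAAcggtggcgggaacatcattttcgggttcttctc
Pcna, chr2:132253131-132253430 (minus strand): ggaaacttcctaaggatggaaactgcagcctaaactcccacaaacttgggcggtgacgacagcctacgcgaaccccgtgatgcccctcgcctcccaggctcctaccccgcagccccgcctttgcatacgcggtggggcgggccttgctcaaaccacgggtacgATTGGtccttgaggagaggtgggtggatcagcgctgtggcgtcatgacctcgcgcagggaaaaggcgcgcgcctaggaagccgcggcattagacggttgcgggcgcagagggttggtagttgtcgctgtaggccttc

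The G2/M promoters of Top2a and Ube2c, whose UMIs lay almost entirely in dividing beta-like cells, and of Spc25, whose UMIs did not, are shown with the same capitals. All 3 hold a CHR motif and CCAAT boxes and no E2F motif, so Spc25 does not differ from the others in the presence of these letters. A match is a description of the sequence and not a bound site.

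Top2a, chr11:99024140-99024439 (minus strand): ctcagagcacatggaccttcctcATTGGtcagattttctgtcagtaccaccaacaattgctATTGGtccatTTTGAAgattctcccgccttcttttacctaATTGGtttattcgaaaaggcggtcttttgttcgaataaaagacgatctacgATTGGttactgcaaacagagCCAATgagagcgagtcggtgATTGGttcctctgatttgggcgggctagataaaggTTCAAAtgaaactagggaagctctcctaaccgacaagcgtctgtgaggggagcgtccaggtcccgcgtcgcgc
Ube2c, chr2:164769679-164769978 (plus strand): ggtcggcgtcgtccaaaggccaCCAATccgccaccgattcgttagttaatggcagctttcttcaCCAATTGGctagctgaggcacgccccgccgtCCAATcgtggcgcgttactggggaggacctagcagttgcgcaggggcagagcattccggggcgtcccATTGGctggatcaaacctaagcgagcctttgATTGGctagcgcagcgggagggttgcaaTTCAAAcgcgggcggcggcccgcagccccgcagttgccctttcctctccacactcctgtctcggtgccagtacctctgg
Spc25, chr2:69206164-69206463 (minus strand): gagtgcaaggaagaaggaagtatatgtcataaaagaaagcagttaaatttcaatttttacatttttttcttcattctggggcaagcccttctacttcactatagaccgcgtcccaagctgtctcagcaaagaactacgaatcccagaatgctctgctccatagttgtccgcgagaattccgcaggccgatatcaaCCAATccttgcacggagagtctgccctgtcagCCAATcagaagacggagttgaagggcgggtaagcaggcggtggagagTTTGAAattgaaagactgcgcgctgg

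To compare cells at equal depth, each cell was thinned at random to 2000 UMIs, and 20755 of the 21431 cells were deep enough. A thinned cell was called dividing where it held UMIs of at least 3 of the 32 core members. The word names that threshold and not an observed division. Most beta-like cells held few members: in WT at 1 month, 1981 of 3663 held no core member, 1259 held 1, 217 held 2, 57 held 3 or 4 and 149 held 5 or more, of which 77 held 10 or more. The cells above the threshold were thus mostly far above it in this class, with a median of 8 core members per dividing beta-like cell in both 1-month libraries. In dividing alpha-like cells the median was 3 in WT and 4 in CCR2-DTR at 1 month, so that class lies closer to the threshold.

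At 1 month, dividing cells were found in all 6 classes. Of beta-like cells, 206 of 3663 were dividing in WT (5.62%, exact Clopper-Pearson 95% interval 4.90 to 6.42) and 237 of 3091 in CCR2-DTR (7.67%, 6.75 to 8.66). Of alpha-like cells, 43 of 2320 were dividing in WT (1.85%, 1.34 to 2.49) and 97 of 2392 in CCR2-DTR (4.06%, 3.30 to 4.92). Of delta-like cells, 38 of 992 were dividing in WT (3.83%, 2.72 to 5.22) and 45 of 928 in CCR2-DTR (4.85%, 3.56 to 6.44). The 2 mixed delta-like clusters held 20 of the 38 in WT, and without them the delta-like shares were 2.70% (1.61 to 4.24) and 4.14% (2.79 to 5.89). Among the islet hormone classes the beta-like share was the highest and the alpha-like share the lowest in both libraries, and the intervals of these 2 classes did not overlap.

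In the supporting cells at 1 month, 12 of 533 endothelial-like cells were dividing in WT (2.25%, 1.17 to 3.90) and 48 of 605 in CCR2-DTR (7.93%, 5.91 to 10.4). Among mesenchymal-like cells the counts were 7 of 203 (3.45%, 1.40 to 6.98) in WT and 19 of 383 (4.96%, 3.01 to 7.64) in CCR2-DTR. Macrophage-like cells had the highest share at 2000 UMIs in both libraries, with 20 of 138 in WT (14.5%, 9.08 to 21.5) and 15 of 146 in CCR2-DTR (10.3%, 5.87 to 16.4). The macrophage-like interval overlapped those of the beta-like and endothelial-like cells in CCR2-DTR but not in WT. This order did not hold at another depth. Thinning levels all UMIs together, and hormones took a median of 54.4% of the UMIs of beta-like cells that were not dividing in WT, against 2.82% in macrophage-like cells. On cells thinned to 1000 UMIs of genes other than hormones, the share was 5.33% (2.33 to 10.2) and 4.67% (1.90 to 9.38) in macrophage-like cells and 5.86% (5.12 to 6.67) and 6.52% (5.68 to 7.45) in beta-like cells, and the alpha-like shares, 1.07% and 2.43%, stayed the lowest of the hormone classes.

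**Figure D1:**
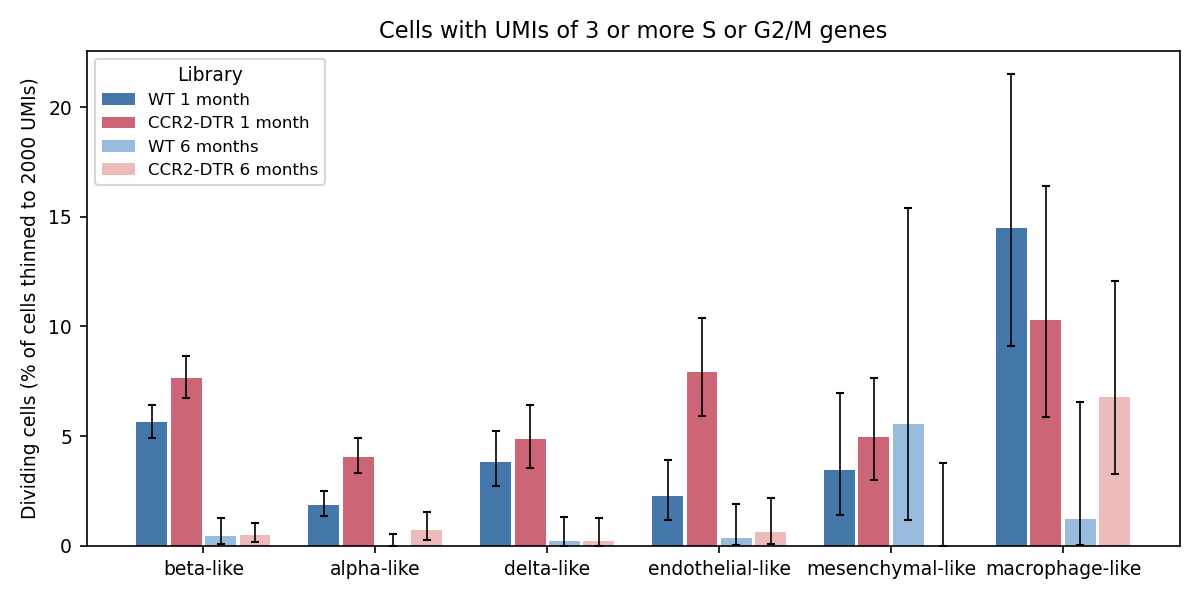
Share of dividing cells (percent of cells thinned to 2000 UMIs that hold at least 3 core members) in each class and library, with exact 95% intervals for counting error. The 1-month bars stand above the 6-month bars in 5 of the 6 classes in both genotypes, the mesenchymal-like cells of WT (3.45% and 5.56%) being the exception.

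At 6 months dividing cells were rare in the hormone classes. Over all 6 classes, 787 of the 821 dividing cells came from the 1-month libraries. Those libraries also held more cells after the filters (8736 in WT and 8599 in CCR2-DTR, against 3633 and 4252 at 6 months). Of beta-like cells, 3 of 703 were dividing in WT (0.427%) and 6 of 1265 in CCR2-DTR (0.474%), 13.2-fold lower than at 1 month in WT (95% interval of the ratio 4.45 to 64.4) and 16.2-fold lower in CCR2-DTR (7.32 to 44.5). No dividing cell was found among 669 alpha-like cells of WT, which allows a share of up to 0.448%. With the 0 set at that limit of 3 cells the share was 4.13-fold lower than at 1 month, and by the exact interval of the ratio at least 3.22-fold lower. On 1000 UMIs of genes other than hormones, however, the 6-month to 1-month ratio in these cells was 0.561 (0.142 to 1.62). In CCR2-DTR 6 of 853 alpha-like cells were dividing (0.703%), 5.77-fold lower (2.55 to 16.1). Of delta-like cells, 1 of 428 was dividing in WT and 1 of 442 in CCR2-DTR, 16.4-fold lower (2.77 to 664) and 21.4-fold lower (3.66 to 865); without the mixed clusters the WT ratio went from 0.0610 to 0.110 (0.00264 to 0.697) and that of CCR2-DTR from 0.0467 to 0.0760 (0.00186 to 0.458). The size of the fall depends on the threshold: the 6-month to 1-month ratio of the beta-like share was 0.0759 in WT and 0.0619 in CCR2-DTR, against 0.382 and 0.241 where 2 core members sufficed, and 0.242 and 0.144 on cells thinned to 4000 UMIs.

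The supporting cells were less uniform with age. Endothelial-like cells held 2 dividing cells of 327 in CCR2-DTR at 6 months (0.612%, 13-fold lower, 3.40 to 110) and 1 of 293 in WT (0.341%, 6.60-fold lower). The WT interval (0.976 to 282) did not exclude equal shares, and under another thinning seed the 6-month to 1-month ratio moved from 0.152 to 1.14. Macrophage-like cells fell from 14.5% to 1.20% in WT (1 of 83, 12-fold lower, 1.92 to 499), a ratio of 0.0831 that became 0.408 (0.0422 to 2.04) on 1000 UMIs of genes other than hormones, while in CCR2-DTR 10 of 148 were still dividing (6.76%), 1.52-fold lower with an interval (0.639 to 3.78) that did not exclude equal shares; the CCR2-DTR ratio of 0.658 was 0.219 where 5 core members were asked for. Mesenchymal-like cells held 3 dividing cells of 54 in WT (5.56%) and 0 of 96 in CCR2-DTR, which allows up to 3.13%. With so few cells no age difference could be seen in WT (6-month to 1-month ratio 1.61, 0.269 to 7.06), and in CCR2-DTR the share was 1.59-fold lower with the 0 set at 3 cells and at least 1.17-fold lower by the exact interval.

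Between genotypes at 1 month, the CCR2-DTR library held more dividing endothelial-like, alpha-like and, by less, beta-like cells. The ratio of CCR2-DTR to WT was 3.52 in endothelial-like cells (1.84 to 7.29), 2.19 in alpha-like cells (1.51 to 3.21) and 1.36 in beta-like cells (1.13 to 1.65). In delta-like cells (1.27, 0.804 to 2.00), mesenchymal-like cells (1.44, 0.579 to 4.05) and macrophage-like cells (0.709, 0.338 to 1.46) the intervals included 1. Over the alternative settings the ratio lay between 2.10 and 7.34 in endothelial-like cells and between 1.52 and 4.17 in alpha-like cells, with the interval above 1 throughout; without cluster c21 the endothelial-like ratio was 4.12 (2.06 to 9.15). The beta-like ratio lay between 1.11 and 1.43, and its interval reached 1 with mitochondrial shares up to 25% allowed (1.21, 0.968 to 1.51), with finer clusters (1.19, 0.919 to 1.54), with thinning on genes other than hormones (1.11, 0.914 to 1.35) and without the 3 mixed clusters (1.20, 0.956 to 1.5). Of the 3 mixed clusters only c7 is beta-like, and it held no marked share of another hormone. With the 25% limit and with finer clusters the beta-like class also lost most of cluster c7, of whose 1452 cells 92 and 260 kept the name, so the effect of the limit alone was not measured.

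The genotype difference stood in both large alpha-like clusters and in all 4 beta-like clusters, although not always beyond counting error. Alpha-like cluster c0 held 2.02% dividing cells in WT and 5.32% in CCR2-DTR, and cluster c2 held 1.65% and 3.22%. In beta-like cells the gap was widest in cluster c7 (7.55% against 12.9%) and narrower in c1 (5.73% against 7.04%), c3 (3.71% against 5.28%) and c4 (5.83% against 6.37%). The share of insulin RNA in alpha-like cells was also higher in the CCR2-DTR library, at a median of 2.98% of UMIs against 1.21% in cluster c0. Its part in the difference was not tested. In the 2 libraries the share of cells over the mitochondrial limit also differed, as given above, and its part was not tested beyond the setting with a limit of 25%, where the alpha-like and endothelial-like ratios were 2.23 and 3.56.

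At 6 months the counts were too small to compare genotypes in most classes: the ratio was 1.11 in beta-like cells (0.237 to 6.87), 0.968 in delta-like cells (0.0123 to 76.0) and 1.79 in endothelial-like cells (0.0933 to 106). In alpha-like cells it was 1.57 with the 0 of WT set at 3 cells (interval from 0.923 upwards) and in macrophage-like cells 5.61 (0.798 to 243), and neither interval excluded 1.

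The balance of S against G2/M differed between classes. Of the core UMIs of thinned beta-like cells, the S members made up 22.2% in WT at 1 month (21.0 to 23.4) and 23.6% in CCR2-DTR (22.5 to 24.8). In alpha-like cells they made up 51.6% (49.1 to 54.1) and 43.9% (41.9 to 45.9), in delta-like cells 53.5% and 43.7%, and in endothelial-like cells 52.1% and 38.4%. Mesenchymal-like cells stood at 38.1% and 28.6%, and macrophage-like cells at 39.6% and 56.3%. Beta-like cells were thus the lowest class in both libraries. The UMIs of a single cell are not independent, so these intervals are too narrow.

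The gap was smaller in dividing cells and, against alpha-like and delta-like cells, without 3 members that resting cells also held. In dividing cells only, the S share was 16.1% and 19.1% in beta-like cells (WT, CCR2-DTR) and 25.3% and 22.8% in delta-like cells. It was 21.7% and 23.9% in endothelial-like cells and 16.2% and 18.7% in mesenchymal-like cells. Most of the gap between these classes was thus gone in this share of pooled UMIs, though counts of cells, given below, kept delta-like cells apart. Alpha-like cells kept a higher S share, 35.3% (29.8 to 41.1) and 31.8% (28.8 to 35), as did macrophage-like cells, 30.5% (23.5 to 38.1) and 50.5% (40.3 to 60.7). The share in dividing cells still included Spc25, Dut and Pcna, and it was not computed without them. Over all thinned cells but without Spc25, Dut and Pcna, the S share was 14.2% and 15.6% in beta-like cells, 38.7% and 29.7% in alpha-like cells and 31.4% and 24.9% in delta-like cells. In endothelial-like cells it was 41.1% and 28.6%, so that gap was nearly as wide as before.

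In counts of dividing cells, the share with more S than G2/M UMIs was lowest in beta-like cells of both 1-month libraries. The order of the other classes was not that of the pooled UMIs. Of 206 dividing beta-like cells of WT at 1 month, 154 held both S and G2/M members, 45 held G2/M members only and 7 held S members only. In CCR2-DTR the numbers were 192, 43 and 2 of 237. More S than G2/M UMIs were found in 30 and 43 of them, against 21 of 43 and 44 of 97 dividing alpha-like cells. The counts were 15 of 38 and 19 of 45 in delta-like cells and 5 of 12 and 12 of 48 in endothelial-like cells. They were 2 of 7 and 5 of 19 in mesenchymal-like cells and 7 of 20 and 7 of 15 in macrophage-like cells. At 6 months, where few cells were dividing, the S share over all thinned cells was higher in every class but the mesenchymal-like cells of WT, where it was nearly level (38.1% and 39.1%): it was 33.2% and 36.7% in beta-like cells, 62.1% and 62.9% in alpha-like cells, and 81.9% and 84.2% in delta-like cells.

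**Figure D2:**
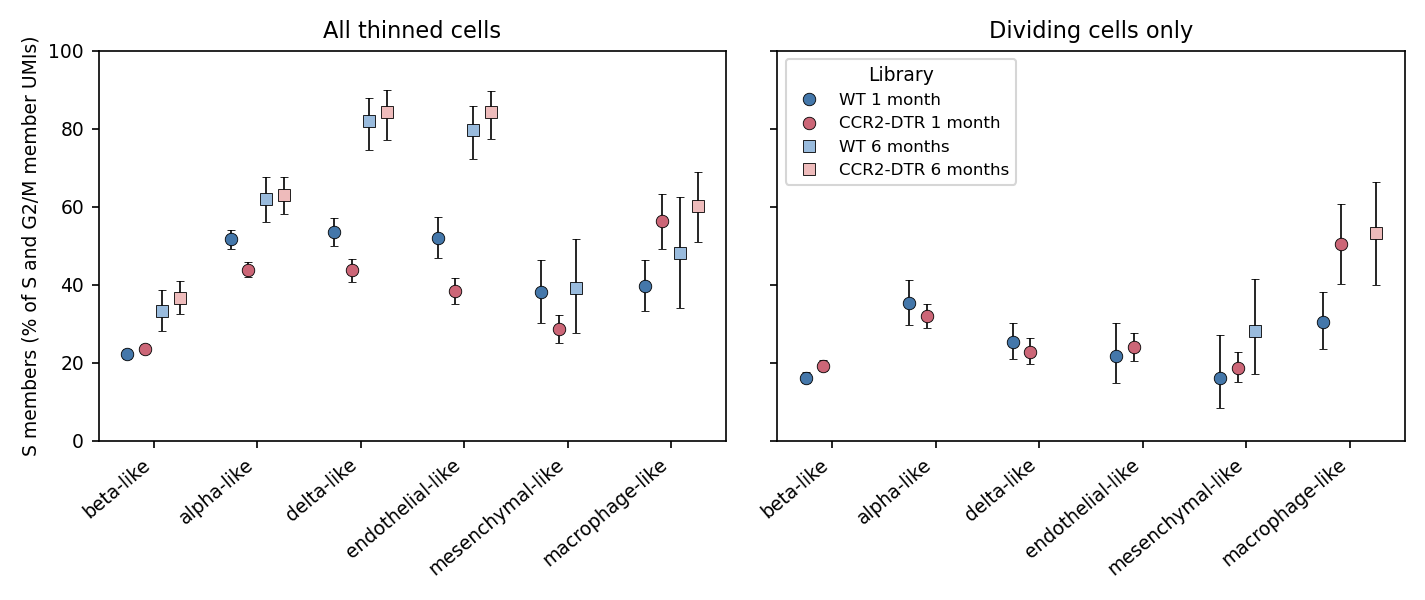
S members as a percent of the UMIs of all S and G2/M members, per class and library, over all thinned cells (left) and in dividing cells only (right), with 95% intervals for counting error; points with fewer than 50 UMIs are left out. Over all cells beta-like cells sit lowest at 1 month (22.2% and 23.6%), and in dividing cells the delta-like, endothelial-like and mesenchymal-like points lie close to them.

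How far each member was confined to dividing cells was measured by its thinned UMIs in cells holding at least 3 other core members. In beta-like cells at 1 month, such cells held a median of 93% (WT) and 91.8% (CCR2-DTR) of the UMIs of a G2/M member, and more than 50% for 21 of 22 members, with Spc25 the exception at 19.0% and 19.5%. Top2a, the topoisomerase that untangles chromosomes, stood at 1216 UMIs per 1000 such cells of WT against 2.60 per 1000 other cells. Mki67, which coats mitotic chromosomes, had 93.5% and 93% of its UMIs in them, and Ube2c, the ubiquitin carrier of the anaphase-promoting complex, 96.5% and 94.9%.

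The S members were spread more widely in the beta-like cells of both libraries, with a median of 47.5% and 55.2%. Dut, which keeps uracil out of DNA, had 25.2% and 27.3% of its UMIs in dividing cells, with 599 UMIs per 1000 dividing and 98.5 per 1000 other cells of WT. Pcna, the sliding clamp, which DNA repair also uses, had 27.6% and 43.5%. Pclaf, the PCNA-associated factor, was the most confined S member, at 80.0% and 87.8%. Of the broad members, Stmn1, which takes microtubules apart, behaved like a G2/M member (87.0% and 90.3%), while Hmgb2, a chromatin protein, stood at 61.7% and 70.0% and Tubb5, a tubulin, at 52.5% and 51.1%.

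In alpha-like cells the members were less confined: the G2/M median was 50% in WT and 72.1% in CCR2-DTR over the 13 and 19 members with at least 10 UMIs, and the S median 11.6% and 27.1% over 8 and 9. Dut had 2.54% and 9.03% of its UMIs in dividing alpha-like cells, and Pcna 6.29% and 13.7%.

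**Figure D3:**
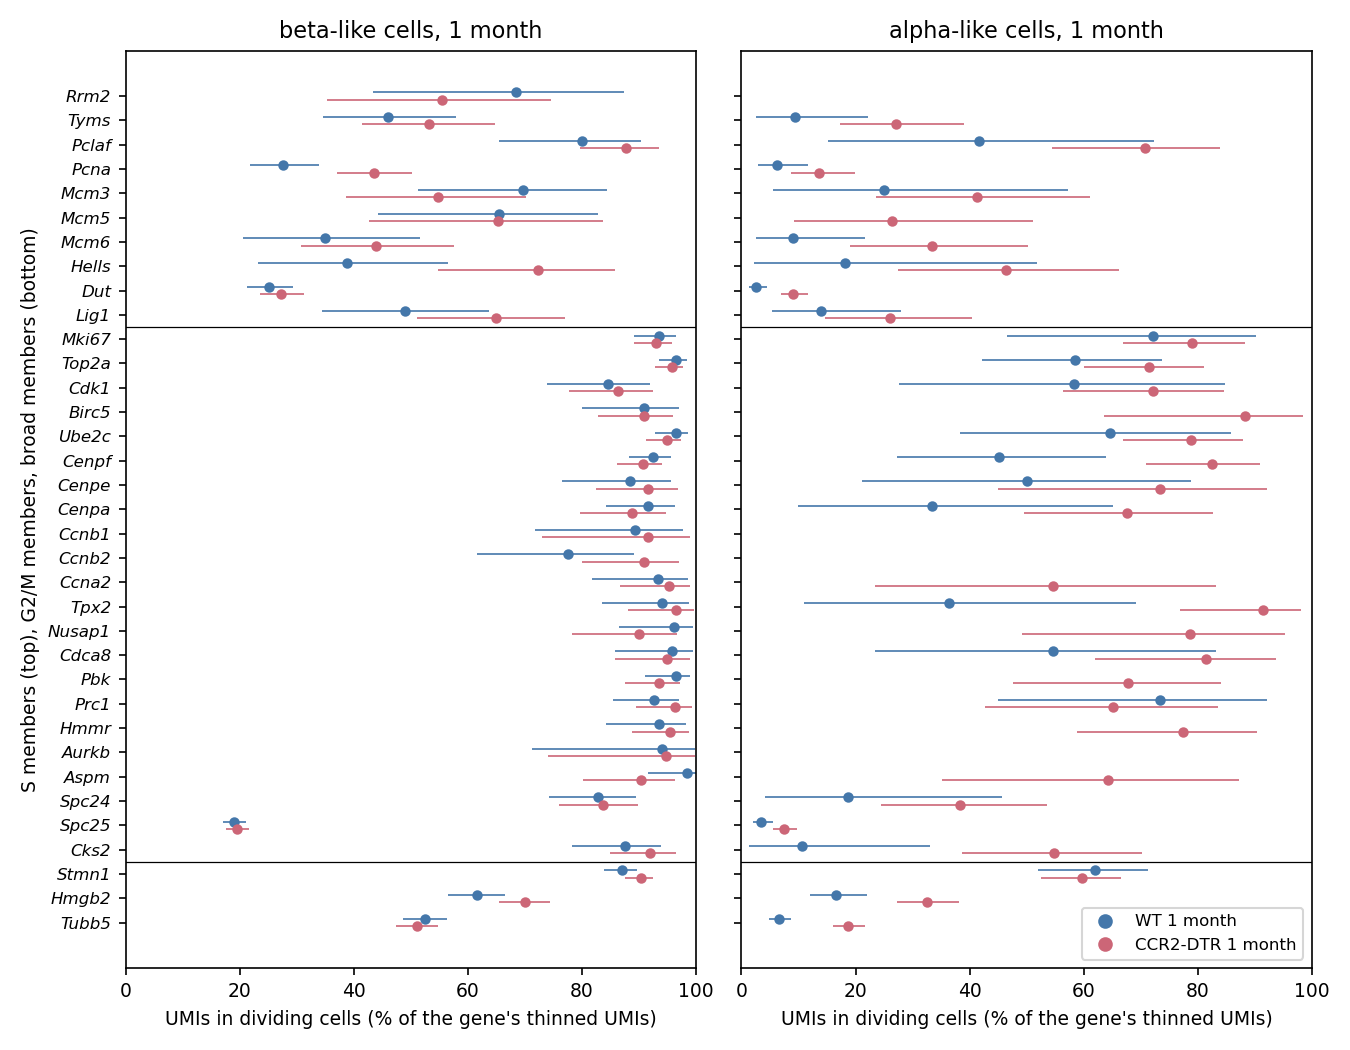
Percent of each member's thinned UMIs that lay in dividing beta-like (left) and alpha-like cells (right) at 1 month, with 95% intervals; members with at least 10 thinned UMIs are shown. In beta-like cells the G2/M members lie near 93% and 91.8% with Spc25 apart at 19.0% and 19.5%, and the S members spread from 25.2% to 80.0% in WT.

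Dividing beta-like cells also differed from the other beta-like cells in depth and hormone content. They held a median of 23520 UMIs before thinning against 17113 in WT, and 16910 against 13931.5 in CCR2-DTR. Their insulin share was lower, 40.3% of UMIs against 49.2% in WT and 32.4% against 41.5% in CCR2-DTR, and they held more genes at equal depth (783.5 against 637, and 857 against 709). The rule can set part of both, since a thinned cell with less insulin keeps more UMIs of other genes, and the members count among the genes. Where dividing cells were called on 1000 UMIs of genes other than hormones, the insulin share was still lower (40.9% against 49.1% in WT and 32.1% against 41.4% in CCR2-DTR), while the number of genes without the members was 713 against 691 and 718 against 691. Their doublet scores were slightly higher (0.0631 against 0.0525 in WT). A separate clustering with doublets kept named 190 and 215 dividing cells beta-like, and none of them was over the limit of 0.25. Its beta-like class is not the one used here, which held 206 and 237 dividing cells after the filter. Dividing delta-like cells stood further apart: in WT they held 18609.5 UMIs against 6977, a doublet score of 0.0979 against 0.0240, and a median of 4.12% Sst UMIs against 9.37%. Of these 38 cells 20 lay in the mixed clusters c13 and c15, and within cluster c5 the gaps were smaller, with 9469 UMIs against 6079, a doublet score of 0.0344 against 0.0143 and 8.08% Sst UMIs against 11.7%. The part of droplets with more than 1 cell in the delta-like share was not tested beyond the score limit and the omission of the mixed clusters, without which the genotype ratio was 1.53 (0.822 to 2.93).

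Member by member, levels are given as CPM, the UMIs of a gene per 1000000 UMIs of all cells of a class in a library, unthinned. CPM compares 1 gene between libraries and not genes with each other, since long and short genes are not scaled. A member was called higher or lower where CPM differed at least 2-fold with a Poisson 95% interval excluding 1, on at least 10 UMIs over both libraries. All genes were put through the same rule as background. A dividing cell gives many UMIs of many members at once, so these intervals are too narrow and the calls of members are not separate results. The background was not matched for how few cells hold a gene.

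In beta-like cells 32 of 35 members were lower at 6 months in WT, where 2.75% of all 15100 genes tested were, and 34 of 35 in CCR2-DTR, where 6.11% of 15063 were. The median log2 ratio of the members was -3.76 in WT, against 0.13 over all genes, and -5.26 in CCR2-DTR, against -0.10. The G2/M members other than Spc25 lay between -5.13 (Ube2c) and -3.03 (Spc24) in WT and between -7.76 (Ube2c) and -4.21 (Ccna2) in CCR2-DTR. The S members fell less: 8 of 10 were called in WT, with a median of -1.33, and 10 of 10 in CCR2-DTR, with a median of -2.12.

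Among the G2/M members in beta-like cells, Top2a stood at 47.5 CPM in WT and 63.4 in CCR2-DTR at 1 month, and at 3.11 and 0.433 at 6 months. It was 15.3-fold lower with age in WT and 147-fold lower in CCR2-DTR. Cenpf, a kinetochore protein, stood at 38.3 and 45.5 CPM at 1 month and at 2.20 and 0.289 at 6 months. Mki67 stood at 36.1 and 43.1 CPM, then 1.96 and 0.519. Ube2c had the steepest fall, from 33.5 and 43.6 CPM to 0.956 and 0.202. Both 1-month libraries lay far above both 6-month libraries for all 4 genes.

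Cks2, a small subunit of the cyclin-dependent kinases, stood at 16.1 and 18.5 CPM in beta-like cells at 1 month and at 1.53 and 0.894 at 6 months. Spc24, a partner of Spc25 in the Ndc80 complex that ties kinetochores to microtubules, stood at 17.1 and 21.4, then 2.10 and 1.04. Pbk, a kinase made in mitosis, stood at 19.6 and 23.2, then 2.06 and 0.606. The 14 other G2/M members lay between 2.81 (Aurkb) and 13.9 (Prc1) CPM in WT at 1 month, with a median of 9.13, and between 0.0956 and 1.00 at 6 months. In CCR2-DTR they lay between 4.07 and 22.2 CPM at 1 month and between 0.0577 and 0.606 at 6 months.

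The S members of beta-like cells differed widely in how far they fell. Dut stood at 62.8 CPM in WT and 84.2 in CCR2-DTR at 1 month, and at 42.6 and 40.4 at 6 months, a fall of 1.47-fold and 2.08-fold, of which only the second passed the rule. Pcna stood at 32 and 45.4 CPM, then 21.0 and 20.8 (1.53-fold and 2.18-fold lower, again only the second past the rule). Tyms, the thymidylate synthase, stood at 9.79 and 13.6, then 4.83 and 4.65. Lig1, the ligase that joins the lagging strand, stood at 8.18 and 11.1, then 3.63 and 4.88. Mcm6, a helicase subunit, stood at 7.20 and 9.41, then 3.35 and 2.77. The 5 other S members lay between 3.07 (Rrm2) and 10.3 (Pclaf) CPM in WT at 1 month and between 0.239 (Mcm3) and 1.43 (Hells) at 6 months. Pclaf went from 10.3 and 17.2 CPM to 1.00 and 0.750, and Mcm3 was 20-fold lower in WT and 22.5-fold lower in CCR2-DTR.

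The broad members divided in the same way in beta-like cells. Stmn1 stood at 86.8 CPM in WT and 117 in CCR2-DTR at 1 month and at 5.93 and 2.60 at 6 months (14.6-fold and 44.9-fold lower). Hmgb2 stood at 59.7 and 70.7, then 14.7 and 12.7. Tubb5 stood at 99.3 and 126, then 46.5 and 41.1, the smallest change of the 3 (2.14-fold and 3.08-fold).

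**Figure D4:**
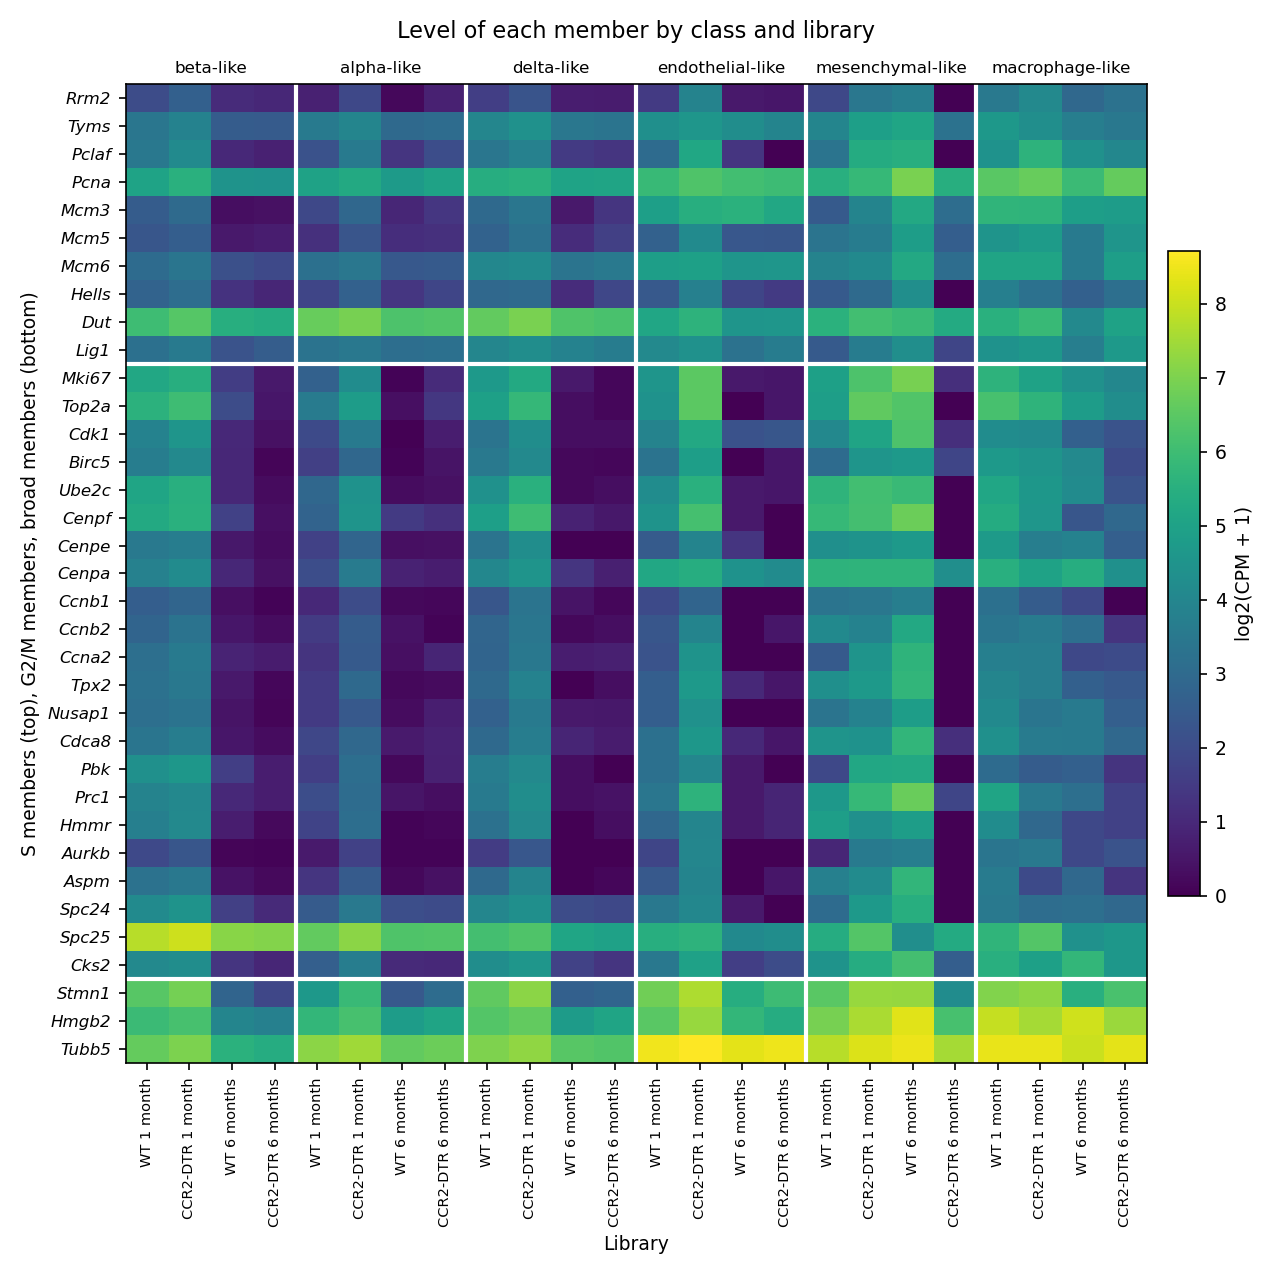
Level of each of the 35 members, as log2(CPM + 1), in every class and library (S members at the top, then G2/M members, then the broad members). Columns of the 1-month libraries are brighter than those of the 6-month libraries in beta-like, alpha-like, delta-like and, for G2/M members, endothelial-like cells, whereas Dut, Pcna and Spc25 stay bright in the 6-month columns of the beta-like cells (42.6, 21.0 and 144 CPM in WT).

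Spc25 stood apart from the other G2/M members. In beta-like cells it stood at 219 CPM in WT and 264 in CCR2-DTR at 1 month and 144 and 135 at 6 months; it was the only core member that passed the 2-fold rule with age in neither genotype (1.52-fold and 1.96-fold lower). Its partners in the Ndc80 complex did not share this: Nuf2 stood at 3.90 and 4.54 CPM, then 0.478 and 0.115, and Ndc80 at 3.53 and 4.99, then 0.239 and 0.260. Of beta-like cells holding no other core member, 29.8% in WT and 33.5% in CCR2-DTR held an Spc25 UMI at 1 month, and 20.4% and 21.5% at 6 months. Of those with 3 or more other core members, 75.1% and 74.2% held one at 1 month, so the gene was also higher in dividing cells.

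The share of cells without other core members that held an Spc25 UMI was lower in the other classes at equal depth. It was 17.2% and 22.8% in alpha-like cells at 1 month, 5.62% and 8.13% in delta-like cells, 2.38% and 6.08% in endothelial-like cells, 2.24% and 6.96% in mesenchymal-like cells, and 2.86% and 10.4% in macrophage-like cells (0.348 to 9.94 and 4.30 to 20.3). Read against the macrophage-like cells as background, the beta-like and alpha-like shares lay above it beyond counting error in both libraries, and the other 3 classes did not. In CPM, Spc25 stood at 97.3 and 147 in alpha-like, 68.6 and 78.9 in delta-like, 42.9 and 48.9 in endothelial-like, 41.2 and 82.1 in mesenchymal-like, and 51.1 and 81.4 in macrophage-like cells at 1 month, so beta-like and alpha-like cells were the highest in both libraries and the other 4 had no common order.

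Spc25 lies on chromosome 2 (chr2:69193895-69206194, minus strand, GENCODE vM21 on GRCm38), 4878 bases from G6pc2 (chr2:69211073-69227841, plus strand), which encodes a glucose-6-phosphatase subunit made by beta cells. The 2 genes point away from each other and share no exon. For every 100 G6pc2 UMIs, beta-like cells held 29.9 and 29.7 Spc25 UMIs at 1 month and 18.8 and 16.3 at 6 months, while alpha-like cells held 270 and 193, then 244 and 210. The ratio was thus not the same in these 2 classes. At 1 month it was 46.9 and 47.6 in delta-like cells and 49.2 and 44.8 in endothelial-like cells. In mesenchymal-like cells it was 24.6 and 42.3, and in macrophage-like cells 31.4 and 35.4. Alpha-like cells thus stood apart from all other classes, while the macrophage-like ratio was close to that of beta-like cells. G6pc2 stood at 163 and 230 CPM in macrophage-like cells at 1 month, and its source there was not tested.

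**Figure D5:**
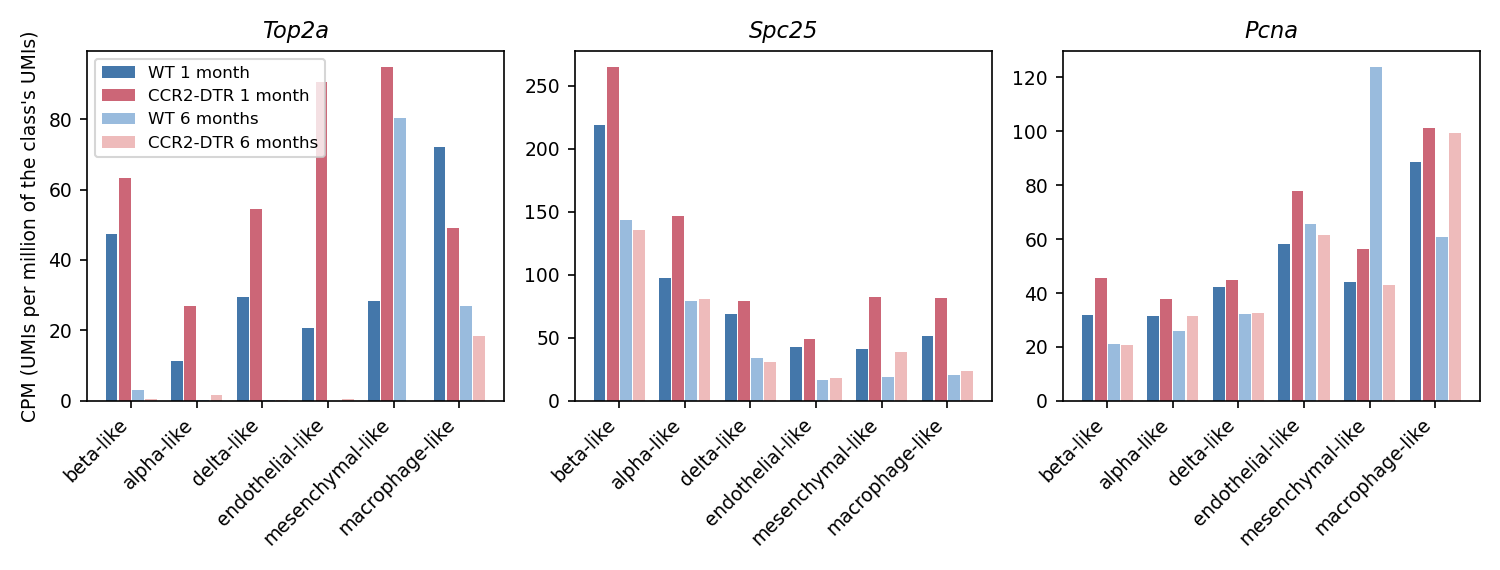
CPM of Spc25, Top2a and Pcna in each class and library (1 bar per library, without error bars since there is 1 library per group). Top2a is near 0 in the 6-month hormone classes, Pcna keeps 21.0 and 20.8 CPM in the 6-month beta-like cells, and Spc25 keeps 144 and 135 CPM in the 6-month beta-like cells.

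In alpha-like cells the members fell with age as well: 24 of 35 were lower in WT, where 3.49% of all genes were, and 29 of 35 in CCR2-DTR, where 4.15% were. The called members were mainly of the G2/M group, 20 and 21 of 22, against 3 and 6 of 10 S members. On thinned cells, which hold fewer UMIs, 4 of 24 members tested were called in WT and 19 of 32 in CCR2-DTR. Between genotypes at 1 month, 27 of 35 members were higher in CCR2-DTR, against 1.98% of all genes, with a median log2 ratio of 1.36 against -0.02 over all genes. They included 21 of 22 G2/M members, 5 of 10 S members and 1 of 3 broad members, and none was lower. On thinned cells 15 of the 34 members tested were called, and 17 of 35 with doublets kept.

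Top2a stood at 11.3 CPM in alpha-like cells of WT and 26.9 of CCR2-DTR at 1 month, and at 0.282 and 1.66 at 6 months; the 1-month ratio was 2.37-fold. Mki67 stood at 5.58 and 17.6 CPM, then 0.0705 and 1.11 (3.16-fold at 1 month). Ube2c stood at 6.44 and 20.8, then 0.211 and 0.308 (3.22-fold), and Cenpf at 5.90 and 21.5, then 1.76 and 1.29 (3.65-fold). The S members with a high resting level changed little: Dut stood at 101 and 120 CPM, then 77.2 and 81.0, and Pcna at 31.6 and 37.9, then 26.0 and 31.5. In each of these genes the CCR2-DTR library at 1 month was the highest of the 4. Of the G2/M UMIs without Spc25, the 3 highest cells held 34.2% in WT and 15% in CCR2-DTR.

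At 6 months 6 of the 26 members tested in alpha-like cells were higher in CCR2-DTR than in WT, against 1.24% of all genes, and none was lower; 37.4% of the G2/M UMIs without Spc25 in that library lay in 3 cells. In beta-like cells no member passed the rule between genotypes at 1 month, where 1.89% of all genes were higher and 0.439% lower in CCR2-DTR. All 35 ratios were above 1 there, with a median of 0.37 on the log2 scale against 0.19 over all genes. At 6 months 13 of 33 were lower in CCR2-DTR, against 1.66% of all genes, but 81.7% of the 465 G2/M UMIs of WT (without Spc25) lay in 3 of 724 cells, and none of the 8 members tested on thinned cells was called.

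In delta-like cells 29 of 35 members were lower at 6 months in WT (2.63% of all genes) and 30 of 35 in CCR2-DTR (3.37%), including 22 of 22 G2/M members in both; on thinned cells the counts were 8 of 24 and 25 of 32. Top2a stood at 29.6 and 54.6 CPM at 1 month and at 0.254 and 0.119 at 6 months, and Dut at 97.8 and 124, then 77.7 and 73.1. Between genotypes at 1 month 7 of 35 members were higher in CCR2-DTR, against 1.11% of all genes, all of them G2/M members; the count was 4 with hormone genes left out of the total and 20 at 1.5-fold. At 6 months 1 of the 20 members tested was higher in CCR2-DTR, against 0.801% of all genes: Hells, a chromatin remodeller, stood at 1.14 CPM in WT and 2.61 in CCR2-DTR, on 9 and 22 UMIs. Stmn1 stood at 94.6 and 147 CPM at 1 month and at 5.34 and 6.05 at 6 months.

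In endothelial-like cells 29 of 35 members were lower at 6 months in CCR2-DTR (5.37% of all genes) and 20 of the 32 tested in WT (3.30%); on thinned cells the counts were 18 of 30 and 3 of 15. At 1 month 21 of 35 were higher in CCR2-DTR than in WT, against 2.27% of all genes, with a median log2 ratio of 1.5 against 0.04; they were 17 of 22 G2/M members and 4 of 10 S members. Top2a stood at 20.7 CPM in WT and 90.5 in CCR2-DTR at 1 month, and at 0 (no UMI) and 0.444 at 6 months. Mki67 stood at 22.2 and 90.8, then 0.513 and 0.444, and the 1-month ratio was 4.37-fold for Top2a and 4.10-fold for Mki67. Of the G2/M UMIs without Spc25, 69.4% in WT lay in 3 cells, against 14.6% in CCR2-DTR, so the WT levels rest on few cells. At 6 months none of the 14 members tested passed the rule between genotypes, where 1.21% of all genes were higher in CCR2-DTR and 1.05% lower.

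Some members with many UMIs in endothelial-like cells were not called with age. Mcm3, a helicase subunit, stood at 29.1 and 42.8 CPM at 1 month and at 46.7 and 36.4 at 6 months, and Pcna at 58.1 and 77.8, then 65.7 and 61.3. Tubb5 stood at 363 and 418, then 330 and 356. Cenpa, the histone H3 variant of the centromere, was lower in CCR2-DTR (2.44-fold) and not called in WT, at 20.5 and 17.3 CPM at 6 months against 36.7 and 42.2 at 1 month.

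In macrophage-like cells 11 of 35 members were lower at 6 months in WT (5.95% of all genes) and 12 of 32 in CCR2-DTR (7.35%), or 4 and 2 of the 15 tested on thinned cells. Top2a stood at 72.0 CPM in WT and 49.2 in CCR2-DTR at 1 month, and at 27.0 and 18.4 at 6 months. Pcna stood at 88.6 and 101, then 60.7 and 99.5, and Hmgb2 at 248 and 186, then 271 and 167. Between genotypes at 1 month 1 member (Pclaf, 20.9 CPM in WT and 48.3 in CCR2-DTR) was higher, against 2.15% of all genes, and 4 (Cenpe, Prc1, Hmmr and Aspm) were lower, against 1.48%. Of the 26 members tested at 6 months, Mcm6 was higher (2.99% of all genes) and Birc5, Ube2c, Cenpa and Cks2 were lower (1.62%). These genes, and Hells in delta-like cells, were named after their values were seen. The single higher member, of 35 tested at 1 month and 26 at 6 months, is near the share over all genes. On thinned cells 1 of 21 members was called between genotypes at 1 month (lower) and 0 of 9 at 6 months. The 3 highest cells held 47.7% to 74.9% of the G2/M UMIs without Spc25 in these libraries.

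In mesenchymal-like cells the direction with age differed between the genotypes, on few cells. In WT 21 of the 33 members tested were higher at 6 months (4.64% of all genes) and none was lower. On thinned cells of WT 1 of the 10 members tested was higher. In CCR2-DTR 28 of 35 were lower (3.04%), or 7 of 27 on thinned cells. Mki67 stood at 30.2 CPM in WT and 76.1 in CCR2-DTR at 1 month, and at 121 and 1.26 at 6 months. The WT library at 6 months held 58 such cells, and 3 of them carried 98.6% of its 363 G2/M UMIs (without Spc25). Between genotypes, 12 of 35 were higher in CCR2-DTR at 1 month (1.80%), where 79.0% of the WT G2/M UMIs lay in 3 cells, and 24 of the 27 tested were lower at 6 months (7.51%).

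Cell cycle genes that are no members were also counted. Of 24 other replication genes, 14 were lower at 6 months in beta-like cells of WT (2.75% of all genes) and 22 in CCR2-DTR (6.11%), and of 39 other mitosis genes 35 and 37. Between genotypes at 6 months, where 13 members were lower in beta-like cells, 0 of 20 replication genes and 6 of 31 mitosis genes tested were lower (1.66% of all genes). In alpha-like cells at 1 month 5 of 24 and 20 of 39 were higher in CCR2-DTR (1.98%), and in endothelial-like cells 9 of 22 and 24 of 39 (2.27%). In endothelial-like cells of WT 0 of 13 replication genes and 14 of 24 mitosis genes tested were lower with age (3.30%). Rrm1, the large subunit of ribonucleotide reductase, stood at 12.9 and 15.2 CPM in beta-like cells at 1 month and at 5.30 and 4.82 at 6 months. Gmnn, which blocks relicensing, stood at 10.4 and 13.5, then 5.16 and 4.01. Mcm7 stood at 8.26 and 10.9, then 5.16 and 5.80, and Slbp, the histone stem-loop binding protein, at 18.8 and 22.8, then 15 and 12.3; neither passed the rule in WT.

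Of the mitosis genes with most UMIs, the condensin subunits fell with age in beta-like cells: Smc2 went from 18.6 and 22.8 CPM to 4.97 and 3.58, and Smc4 from 35.8 and 47.4 to 13.6 and 11.9. The histone variants H2afz (294 and 388 CPM, then 218 and 202) and H2afx (31.5 and 41.4, then 19.3 and 17.1) had a resting level and did not pass the rule in WT.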

How the data were processed

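The deposited files hold raw UMI counts per gene and barcode, made by the authors with Cell Ranger 5.0.1 on mm10, per the submitters' processing notes; which gene annotation was used, and whether intronic reads were counted, is not given in the sources used here. From these counts, barcodes were kept with no fewer than 1000 UMIs and 500 genes and a mitochondrial share of up to 15%, and cells with a Scrublet doublet score over 0.25 removed. Counts were scaled to 10000 per cell and logged, and 2000 variable genes (without 165 listed cell cycle and histone genes and 600 genes correlated with the core members at 0.1 or more), 30 principal components, 15 neighbours and Leiden resolution 1 gave the clusters, with scanpy 1.11.5, leidenalg 0.10.2, igraph 0.11.9, scikit-learn 1.9.0 and Python 3.11.15. A cluster took a class name from at least 3 of the listed markers standing out; the correlation step and this comparison with the median cluster were added after the data had been seen.

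Cells were thinned without replacement to 2000 UMIs, and 676 shallower cells of the 6 classes were left out of thinned values. Shares carry exact Clopper-Pearson intervals and ratios exact conditional Poisson intervals (scipy 1.17.1); a count of 0 was set to 3 counts and the ratio given as a bound. UMIs are single molecules, and the intervals cover counting error only. With 1 library per group no test across samples was possible. The calls were run on counts simulated with independent UMIs, which cannot show how they behave where few cells hold most UMIs of a gene.

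The members and lists were chosen with earlier results of these data known. Named with values in every library were the members with most UMIs (5 of S, 8 of G2/M, the 3 broad members), the 4 replication and 4 mitosis genes with most UMIs outside the members, and, for dividing against other beta-like cells, the 10 highest and 10 lowest genes by the smaller ratio over the 2 1-month libraries. A gene that this rule names is not reported here. Thinning depth, thresholds, normalization, doublets, clustering and the mixed clusters were varied.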

Additional observations from a re-analysis of the deposited data

Results flagged for a closer look

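In 4 comparisons the ratio of the dividing share lay above 1 in 1 group and below 1 in the other; none of these differences was tested, since each group is 1 library, and all but 1 of the intervals include 1. The CCR2-DTR to WT ratio of the delta-like dividing share was 1.27 at 1 month and 0.968 at 6 months, the latter from 1 dividing cell in each library (0.804 to 2.00 and 0.0123 to 76.0). In mesenchymal-like cells it was 1.44 at 1 month (0.579 to 4.05) and, with the 0 of CCR2-DTR among 96 cells set at 3 cells, 0.562 at 6 months (up to 1.36). The 6-month to 1-month ratio of the mesenchymal-like share was 1.61 in WT (0.269 to 7.06) and, with the 0 set at 3 cells, 0.630 in CCR2-DTR (up to 0.855). In macrophage-like cells the genotype ratio was 0.709 at 1 month and 5.61 at 6 months, with intervals that include 1 at both ages.

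Dividing cells were also found in classes that the comparisons do not use. Of the B-like cells of CCR2-DTR at 6 months 8 of 60 were dividing (13.3%), and of the T and NK-like cells 7 of 55 (12.7%); the WT library held 6 and 5 such cells, none of them dividing. Of acinar-like cells 11 of 48 were dividing in CCR2-DTR at 1 month (22.9%) and 8 of 50 in WT (16.0%). In clusters without a name 22 of 408 cells were dividing in CCR2-DTR at 1 month (5.39%) and 14 of 515 in WT (2.72%).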

How the results depend on the processing

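Of the age ratios of the dividing share, 159 values under alternatives were counted as unmoved and 8 as moved. Of the genotype ratios 160 were unmoved and 3 moved, and none changed direction among those with a call. Unmoved meant within the interval of the value reported. A ratio with a count of 0 was held to less, since keeping its side of 1 was enough. The age ratio of alpha-like cells of WT was thus counted as unmoved, although it went from 0.242 (up to 0.311) to 0.561 on 1000 UMIs of genes other than hormones. The share over all classes and libraries was 3.96% and became 10.4% with 2 core members, 2.35% with 5, 3.68% with 2 G2/M members, 2.49% and 7.84% on 1000 and 4000 UMIs, 3.16% on 1000 UMIs of genes other than hormones, 3.59% with the 25% mitochondrial limit, 3.34% at resolution 2, and, with settings chosen after seeing the data, 3.59% without the 3 mixed clusters and 2.77% without Spc25, Dut and Pcna. The age ratio of beta-like cells (WT 0.0759, CCR2-DTR 0.0619) was 0.382 and 0.241 with 2 core members and 0.242 and 0.144 on 4000 UMIs, and 0.0139 in CCR2-DTR without Spc25, Dut and Pcna. That of endothelial-like cells was 0.413 in CCR2-DTR (from 0.0771) with 2 core members and 1.14 in WT (from 0.152) with another seed, and that of macrophage-like cells in CCR2-DTR 0.219 (from 0.658) with 5. The genotype ratio at 1 month was 4.17 in alpha-like cells on 1000 UMIs (from 2.19), and 1.11 in beta-like (from 1.36) and 7.34 in endothelial-like cells (from 3.52) on 1000 UMIs of genes other than hormones. The cause of these moves was not tested. Leaving out endothelial-like cluster c21, also chosen after seeing the data, moved no ratio beyond counting error. The mesenchymal-like cells of WT at 6 months numbered fewer than 50 at 4000 UMIs and gave no value.

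The S share of beta-like less that of alpha-like cells at 1 month was -29.4 percentage points in WT and -20.3 in CCR2-DTR. It was -15.9 in CCR2-DTR on all UMIs, -19.2 and -12.7 in dividing cells, -24.6 and -16.0 with doublets kept, -24.5 and -14.0 without Spc25, Dut and Pcna, -17.4 in CCR2-DTR without Dut and Spc25, and -17.6 in CCR2-DTR on genes other than hormones. Against delta-like cells (-31.3, -20.0) it was -19.0 and -10.5 on all UMIs, -9.26 and -3.67 in dividing cells, -17.2 and -9.22 without the 3 members, -20.7 and -10.9 without Dut and Spc25, -27.2 in WT on genes other than hormones, and -44.2 and -23.2 without the mixed clusters. Against endothelial-like cells (-29.9, -14.7) it was -22.2 and -7.63 on all UMIs, -5.58 and -4.76 in dividing cells, and -36.0 and -11.2 on genes other than hormones.

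Counts of members lower at 6 months on cells thinned to 2000 UMIs were 4 (WT) and 19 (CCR2-DTR) in alpha-like cells, from 24 and 29; 8 in delta-like cells of WT, from 29; 3 and 18 in endothelial-like cells, from 20 and 29; 7 in mesenchymal-like cells of CCR2-DTR, from 28; and 4 and 2 in macrophage-like cells, from 11 and 12. Thinned cells hold fewer UMIs, so fewer members reached 10. With at least 30 UMIs the count was 8 in endothelial-like cells of WT and 7 in macrophage-like cells of CCR2-DTR, with cell cycle genes in the clustering 6 and 19, and 1 member was lower in mesenchymal-like cells of WT (from 0) with hormone genes out of the total.

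Counts of members apart between genotypes moved as follows. On thinned cells at 1 month 15 were higher in alpha-like cells (from 27), 1 in beta-like cells (from 0), and 0 higher (from 1) and 1 lower (from 4) in macrophage-like cells. At 6 months thinned cells gave 0 lower in beta-like cells (from 13), 0 higher in alpha-like (from 6) and delta-like cells (from 1), 1 lower in mesenchymal-like cells (from 24), and 0 higher and 0 lower in macrophage-like cells (from 1 and 4). At 1.5-fold the higher counts at 1 month were 3 in beta-like, 20 in delta-like (from 7) and 2 in macrophage-like cells, and 4 in macrophage-like cells at 6 months. With at least 30 UMIs, 6-month counts were 8 lower in beta-like, 2 higher in alpha-like, 7 lower in mesenchymal-like and 2 lower in macrophage-like cells, and 2 were lower in macrophage-like cells at 1 month. With cell cycle genes in the clustering, macrophage-like cells had 3 higher and 2 lower at 1 month and 2 higher at 6 months, and delta-like cells 0 at 6 months. With doublets kept, 17 were higher in alpha-like cells at 1 month, 0 in delta-like cells at 6 months, and in macrophage-like cells 1 was lower at 1 month and 3 were higher and 2 lower at 6 months. With hormone genes out of the total, 4 were higher in delta-like cells at 1 month and 3 in macrophage-like cells at 6 months.

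No paired analysis was possible because each group is 1 library without a replicate number in the labels. The number of dividing cells limits the 6-month shares, which rest on at most 10 per library and class.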

Other observations

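Outside the listed genes, 193 of 2210 genes were at least 2-fold higher in dividing than in other beta-like cells of both 1-month libraries, over cells thinned to 2000 UMIs. The 2210 genes were chosen by a minimum of UMIs in the dividing cells of both libraries. The group called high thus also set which genes were considered, and 193 of 2210 is not a share of all genes. The dividing cells were chosen by their cell cycle genes, so these values are a description. Among the 10 highest were Pimreg, Mxd3, Rad51ap1, Spag5, Clspn, Knstrn, Neil3, Gas2l3 and Asf1b. Knstrn, a kinetochore and spindle protein, stood at 252 UMIs per 1000 dividing and 2.31 per 1000 other cells in WT, and at 228 and 2.45 in CCR2-DTR. Clspn, which serves the replication checkpoint, stood at 146 and 1.45 in WT and at 156 and 0.701 in CCR2-DTR.

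Among 4989 genes, chosen instead by a minimum of UMIs in the other cells, 18 were at least 2-fold lower in dividing beta-like cells of both libraries. This count has another base than that of the higher genes, so the shares cannot be compared. Aldoa, the aldolase of glycolysis, stood at 48.5 UMIs per 1000 dividing cells against 251 per 1000 other cells in WT, and at 97.0 against 291 in CCR2-DTR. Sult1d1, a sulfotransferase, stood at 24.3 against 98.4 in WT and at 54.9 against 136 in CCR2-DTR. The other 8 lowest genes were Cldn4, Abcb9, Dlgap4, Idh1, Hspa1a, Mat1a, Fam117a and Rgs16, each on fewer than 10 UMIs in the dividing cells of a library.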
